A study of Mus musculus with 4 samples.

Results

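Solute carriers are membrane proteins that move sugars, amino acids, ions, nucleosides, vitamins and metabolic intermediates across the plasma membrane and the membranes of organelles, and their genes carry the prefix Slc followed by a family number, a letter and a member number. Every gene symbol of that form was taken from the deposited expression values of C2C12, a line of mouse myoblasts that fuses into myotubes when serum is lowered. This gave 183 genes with 517 listed transcripts. Of these, 160 genes averaged 1 FPKM or more and were tested, among 11822 genes tested of 13824 symbols in all. FPKM is fragments per kilobase of transcript scaled to a library's fragment total, and the FPKM of a gene's transcripts were summed. The 160 genes were grouped by what they carry into 7 genes for glucose and sugar phosphates, 22 for amino acids, 43 for ions, 36 of the mitochondrial family Slc25 and 52 others.

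The study measured RNA in 4 libraries of C2C12 cells that had no genetic change named in the labels. All 4 received siRNA at 30 nM with Lipofectamine and spent 48 h in differentiation medium with 2% horse serum. In 2 libraries the siRNA was scrambled, and in 2 it was directed against Mef2a (siMEF2A), the gene of a transcription factor of muscle differentiation. Whether the libraries of a group stem from separate cultures is not stated. A p-value here thus reflects spread between libraries alone, which may be technical. The test draws most of a gene's spread from other genes of similar level, with 2 residual and 31.1 prior degrees of freedom. A cell line grown in a dish stands for neither muscle fibres nor other cells of muscle tissue, and a pool of siRNA-treated cells was measured as a whole.

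As background, glucose enters muscle cells through facilitative carriers, and amino acids are drawn in by sodium-coupled carriers or swapped across the membrane by exchangers. Most carriers of the Slc25 family sit in the inner mitochondrial membrane, with a few elsewhere such as Slc25a17 in peroxisomes, and pass ADP and ATP, phosphate, and the substrates and cofactors of respiration. Ion carriers of several families set the cell's pH, chloride, zinc, iron, phosphate and calcium. Proteins of the MEF2 family are known as activators of muscle structural and metabolic genes, among them the glucose carrier gene Slc2a4 in muscle tissue.

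Mef2a itself was at 25.8 and 32.2 FPKM with scrambled siRNA against 12.7 and 14.3 FPKM with siMEF2A. Its mean was 29.0 ± 4.52 FPKM (SD, n = 2) and 13.5 ± 1.08 FPKM (SD, n = 2), so that 46.5% remained. On the scale used for every test, log2(FPKM + 1), it fell by 1.05 (SE 0.15, limma adjusted p = 2.40e-05). Estimated sequencing depth relative to scrambled replicate 1 was 1.05 for the second scrambled library and 0.847 and 0.849 for the siMEF2A libraries, and absolute depth is unknown. Over all genes tested 48 rose (0.406%) and 158 fell (1.34%) at an adjusted p under 0.05, a split that became 14 and 135 with median-ratio scaling of the libraries. Of 15 skeletal muscle differentiation markers, 13 were tested and 12 fell, and their summed FPKM was 1662 and 1749 in scrambled against 725 and 747 in siMEF2A. In bulk RNA fewer differentiated cells and less RNA per cell cannot be told apart, and the part of this shift in the differences below was not tested. Of 16 markers of adipocytes, macrophages, endothelium, nerve and epithelium, 13 had no listed value, 1 was under 1 FPKM and 2 were tested, and the sum of those listed was between 2.97 and 4.72 FPKM in each library. Neither of the tested ones passed in limma. At an unadjusted p under 0.05 there was 1, the fat cell marker Fabp4, at 2.30 and 1.54 against 0.767 and 1.18 FPKM. Of 9 tested markers of proliferating myoblasts 0 passed, and 1, the cyclin gene Ccnd1, had an unadjusted p under 0.05, at 5.85 and 6.89 against 9.01 and 8.82 FPKM.

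The carriers spanned a wide range of levels. FPKM is a level per length, so levels can be set side by side between genes, though only roughly. The sum per gene also takes in short non-coding transcripts. In Slc4a3, for example, 5.69% of the FPKM fell on protein-coding ones. Among the 183 genes 23 had a mean under 1 FPKM, 48 lay from 1 to 5, 38 from 5 to 10, 56 from 10 to 50, 12 from 50 to 100 and 6 above 100 FPKM. The median of the tested carriers was 9.10 FPKM, beside 11.7 FPKM for all genes tested. The Slc25 family had the highest class median with 12.3 FPKM and held 40.3% of the carriers' summed FPKM. Ion carriers had a median of 9.18 FPKM and 19.0% of the sum, other carriers 8.46 FPKM and 25.6%, glucose carriers 8.15 FPKM and 3.10%, and amino acid carriers 5.90 FPKM and 11.95%. The 3 most abundant genes together held 23.3% of the sum, and the 10 most abundant held 43.1%. Summed over the tested carriers, FPKM was 3679 and 3874 in scrambled and 3735 and 3921 in siMEF2A, so the groups overlapped.

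**Figure D1:**
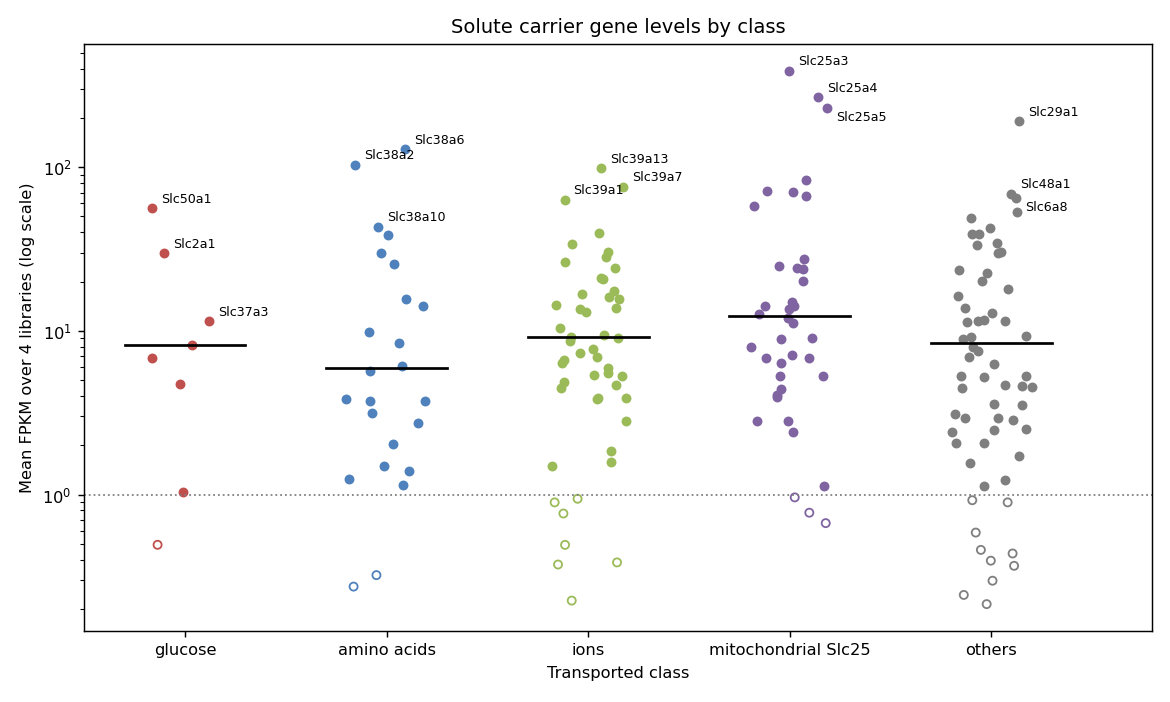
Mean FPKM over the 4 libraries (log scale) of the 183 listed solute carrier genes, in 5 transported classes, with each class's median over the tested genes as a bar. Open circles are the 23 genes under 1 FPKM (dotted line), and the 3 most abundant genes of each class are named. Slc25a3, Slc25a4 and Slc25a5 lie above every other carrier.

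At the minimum level, the genes just inside were Slc37a2, Slc6a2 and Slc25a23, with means of 1.04, 1.12 and 1.13 FPKM. Just outside it were Slc25a43 at 0.961, Slc5a5 at 0.943 and Slc16a6 at 0.923 FPKM. By class 1 glucose, 2 amino acid, 7 ion, 3 Slc25 and 10 other carriers were under the minimum.

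The comparison of siMEF2A with scrambled asked which carriers change when Mef2a is silenced in differentiating myoblasts. One carrier, Slc43a3, rose and 0 fell at an adjusted p under 0.05 in limma, out of 160. That is 0.625% of the carriers called higher against 0.406% of all genes tested, and 0 called lower against 1.34%. At an unadjusted p under 0.05 there were 6 carriers (3.75%), all with higher values in siMEF2A, beside 6.38% of all genes tested. Of the 754 such genes among all tested, 366 were higher and 388 lower in siMEF2A. The carriers' share of such p-values was thus below that of the whole table in both directions together, and it lay entirely on the higher side.

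On the log2(FPKM + 1) scale differences were small in every class. The median log2 fold change (siMEF2A minus scrambled) was 0.06 over the carriers and 0.04 over all genes tested. Class medians were 0.10 for glucose, 0.01 for amino acids, 0.03 for ions, 0.08 for Slc25 and 0.08 for the others. Single carriers ranged from -0.32 to 0.56, and on this scale 0 of 160 estimates passed 1.5-fold, while 205 of the 11822 genes did. In the ratio of mean FPKM itself, without the added 1, 4 carriers were over 1.5-fold higher in siMEF2A and 0 were as much lower. The 4 were Slc43a3 (mean 3.59 FPKM), Slc6a2 (1.12), Slc22a4 (1.72) and Slc16a11 (7.56). The same count over all genes was not made, so this split has no background beside it. The 95% interval of the difference lay inside 1.5-fold in both directions for 151 carriers (94.4%), beside 89.1% of all genes tested. The 9 whose interval reached 1.5-fold were Slc43a3, Slc16a11, Slc22a4, Slc6a2, Slc16a1, Slc35a5 and Slc44a1 among the others, and Slc1a4 and Slc6a6 among amino acid carriers. For the remaining 151 a change of 1.5-fold or more on this scale was outside the interval. The added 1 makes the scale understate changes of genes at a few FPKM: the log2 difference of Slc43a3 was 0.56 with it, 0.63 with 0.5 and 0.71 with 0.1 in its place.

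In 37 carriers (23.1%) both siMEF2A libraries were above both scrambled ones, beside 18.8% of all genes tested. In 11 (6.88%) both were below, beside 9.12%, and in 112 the groups overlapped. The mean difference was above 0 for 111 carriers (69.4%) and for 63.9% of all genes tested. These shares were 51.9% and 48.8% with median-ratio scaling, 56.9% and 52.9% with upper-quartile scaling, and 57.5% and 55.1% with quantile normalization. The carriers' median log2 fold change stayed above 0 under these 3, at 0.015, 0.028 and 0.031, while that of all genes tested was -0.0033, 0.0085 and 0.015.

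The nucleobase and nucleoside carriers held the one call. Slc43a3, which carries purine nucleobases across the plasma membrane, lies on chromosome 2 at 84936579 to 84958509 of mm10 (plus strand, ENSMUSG00000027074). It was at 2.43 and 2.99 FPKM in scrambled against 4.34 and 4.58 FPKM in siMEF2A, with both siMEF2A libraries above both scrambled ones. The means were 2.71 ± 0.394 and 4.46 ± 0.172 FPKM (SD, n = 2), or 165% of scrambled. It rose by 0.56 on the log2 scale (SE 0.15, 95% interval 0.26 to 0.87, limma adjusted p = 0.0387). The call was lost without scrambled replicate 1 (adjusted p = 0.665), without siMEF2A replicate 1 (adjusted p = 0.117), without siMEF2A replicate 2 (adjusted p = 0.252) and with median-ratio scaling (adjusted p = 0.0755). Over 17 alternatives its limma adjusted p ran from 0.00296 to 0.665, and 6 of them kept the call.

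The nucleoside carriers of the Slc29 family had other values. Slc29a1, the main equilibrative nucleoside carrier and the most abundant of the mixed class, was at 199.7 and 211 FPKM in scrambled against 164 and 189 FPKM in siMEF2A. Both siMEF2A libraries were below both scrambled ones, and the log2 difference was -0.22 (95% interval -0.58 to 0.15, limma adjusted p = 1), a mean of 86.1% of scrambled. Slc29a2, a second nucleoside carrier, was at 3.29 and 3.18 FPKM in scrambled against 2.47 and 2.73 FPKM in siMEF2A, again without overlap, with a log2 difference of -0.24 (95% interval -0.53 to 0.06). Slc29a3, the carrier of endosomes and lysosomes, overlapped between groups, at 2.05 and 2.65 against 2.39 and 2.82 FPKM. None of these 3 passed the test.

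**Figure D2:**
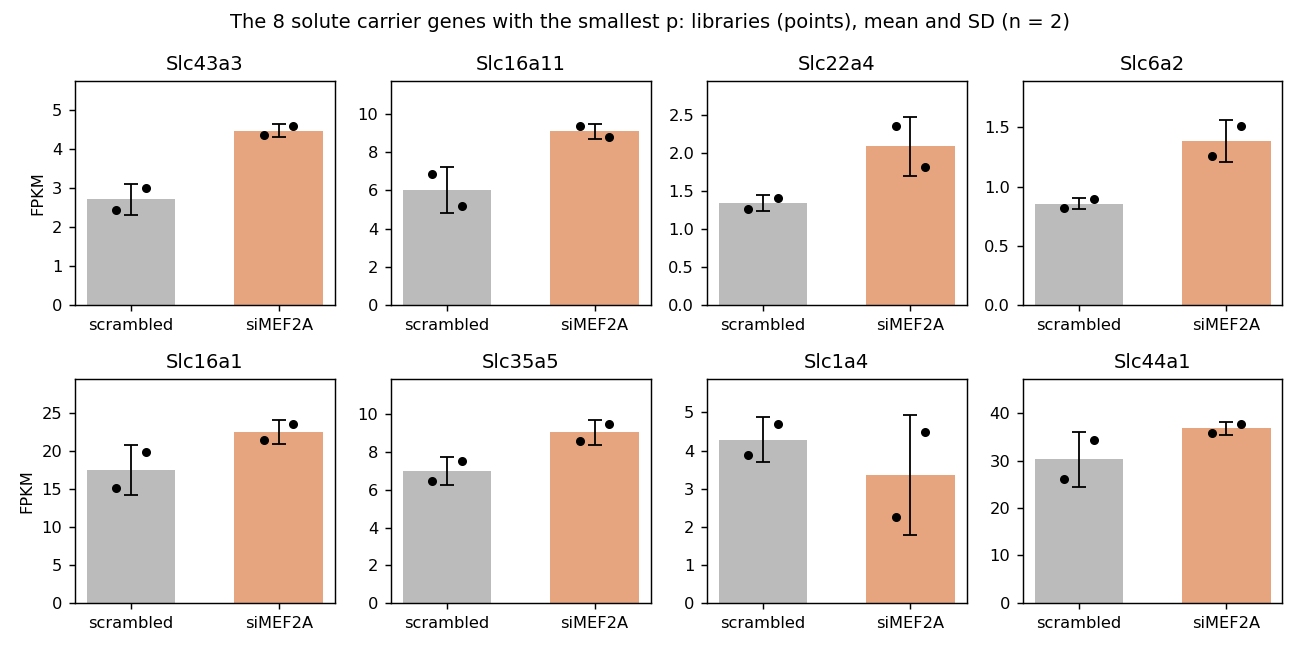
FPKM of the 8 tested carriers with the smallest p, chosen after their values were seen: points are libraries, bars the mean and error bars the SD (n = 2). In Slc43a3, Slc16a11, Slc22a4, Slc6a2, Slc16a1, Slc35a5 and Slc44a1 both siMEF2A libraries lie above both scrambled ones, and in Slc1a4 the groups overlap.

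Monocarboxylate carriers of the Slc16 family take lactate, pyruvate and related acids through the plasma membrane together with protons. Slc16a1, the widely expressed lactate carrier MCT1, was at 15.2 and 19.9 FPKM in scrambled against 21.4 and 23.7 FPKM in siMEF2A. The siMEF2A libraries were higher without overlap, at 128% of scrambled in the mean, but the log2 difference of 0.35 (95% interval 0.04 to 0.67) did not pass the test (limma adjusted p = 0.602). Emb, the gene of embigin, a membrane partner of MCT1, was at 12.3 and 17.9 FPKM in scrambled against 22.2 and 22.9 in siMEF2A, with a limma adjusted p = 0.061. It was the 1 gene with an unadjusted p under 0.05 among 22 tested of 30 partner proteins and other carriers, of which 0 passed. Such a p was found in 6.38% of all genes tested. Bsg, the gene of basigin, the other partner of MCT1, overlapped between groups, at 314 and 379 against 373 and 359 FPKM. Slc16a3, the lactate carrier MCT4 of glycolytic muscle, was near the minimum level, at 1.21 and 1.39 FPKM in scrambled against 0.984 and 1.31 FPKM in siMEF2A, and the groups overlapped.

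Slc16a11, a less studied relative of MCT1, lies on chromosome 11 at 70212752 to 70216417 of mm10 (plus strand), 371 bases from its relative Slc16a13. Slc16a11 was at 6.87 and 5.18 FPKM in scrambled against 9.38 and 8.80 FPKM in siMEF2A. The siMEF2A libraries were higher without overlap, and the mean was 151% of scrambled. The log2 difference of 0.53 (95% interval 0.22 to 0.84) did not pass the test, with a limma adjusted p = 0.0749, and it did with robust moderation (adjusted p = 0.0332) and without scrambled replicate 1 (adjusted p = 0.0229). Without scrambled replicate 2 its limma adjusted p was 0.549, and without siMEF2A replicate 1 or 2 it was 0.5485 or 0.262. Of its FPKM 48.5% fell on protein-coding transcripts, over 7 listed transcripts. Its neighbour Slc16a13 was at 2.80 and 2.47 FPKM in scrambled against 3.83 and 2.65 FPKM in siMEF2A, with overlap.

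The remaining carriers with an unadjusted p under 0.05 were Slc22a4, Slc6a2 and Slc35a5. Slc22a4, a carrier of ergothioneine and organic cations, was at 1.27 and 1.42 FPKM in scrambled against 2.36 and 1.82 FPKM in siMEF2A. Its log2 difference was 0.40 and its limma adjusted p = 0.337. Slc6a2, the noradrenaline carrier, was at 0.823 and 0.891 FPKM in scrambled against 1.26 and 1.51 FPKM in siMEF2A, with a limma adjusted p = 0.451. Slc35a5, of the nucleotide sugar carrier family of the Golgi, was at 6.47 and 7.51 FPKM in scrambled against 8.57 and 9.51 FPKM in siMEF2A, with a limma adjusted p = 0.647. None of the 3 overlapped between groups, and none passed the test.

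Carriers of fuel and muscle metabolites among the others did not pass the test. Slc27a1, a fatty acid transport protein of muscle, was at 50.3 and 49.4 FPKM in scrambled against 54.1 and 59.3 FPKM in siMEF2A. Slc6a8, the creatine carrier, was at 62.8 and 63.6 against 59.6 and 71.6 FPKM. Slc22a5, the carnitine carrier of the plasma membrane, was at 3.34 and 3.64 against 3.36 and 3.85 FPKM. Creatine and carnitine carriers overlapped between groups, and the log2 difference of Slc27a1 was 0.18 (95% interval -0.14 to 0.50). Slc48a1, a heme carrier of lysosomes, was at 61.5 and 68.2 against 70.5 and 75.6 FPKM, with a log2 difference of 0.17. Slc44a2, a choline carrier-like protein, was at 44.1 and 48.0 against 34.2 and 43.9 FPKM, and its log2 difference was -0.24. In these 5 genes the limma adjusted p was 1.

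Glucose carriers gave 0 calls among 7 tested in limma, and 0 at an unadjusted p under 0.05. This was also so for amino acid, ion and Slc25 carriers, while 6.38% of all genes tested had such a p. Slc2a1, the basal glucose carrier GLUT1, was at 25.2 and 31.5 FPKM in scrambled against 29.6 and 33.0 FPKM in siMEF2A, and the groups overlapped. Its log2 difference was 0.14 (95% interval -0.17 to 0.46). Slc2a6, a lysosomal hexose carrier, was at 7.29 and 7.66 against 6.19 and 5.98 FPKM, lower without overlap at 81.4% of scrambled, with a log2 difference of -0.26 (95% interval -0.56 to 0.04). Slc50a1, a sugar effluxer and the most abundant gene of the class, was at 55.2 and 52.9 against 59.5 and 56.3 FPKM. Slc2a8, an intracellular hexose carrier, was at 8.22 and 8.10 against 7.36 and 8.91 FPKM, with overlap. Slc37a4, which brings glucose 6-phosphate into the endoplasmic reticulum, was at 4.24 and 4.62 against 5.15 and 4.97 FPKM, and its relative Slc37a3 was at 9.27 and 12.4 against 10.9 and 13.3 FPKM. Slc2a3 and Slc2a4, the gene of the insulin-responsive carrier GLUT4, were not analysed here.

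A list of 28 genes for glucose use and insulin signalling gave 2 falls among 27 tested, beside 1.34% of all genes tested. Both were genes of muscle forms of an enzyme. Pgam2, the muscle phosphoglycerate mutase, fell to 36.2% of scrambled. The glycogen phosphorylase gene of muscle, Pygm, fell to 49.1% (limma adjusted p under the threshold for both). Other muscle forms on the list, Eno3, Pfkm and Gys1, were at 85.1%, 84.8% and 81.5% of scrambled and were not called. The median log2 fold change of that list was -0.01.

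Amino acid carriers also gave 0 calls, among 22 tested. Slc38a2, a sodium-coupled carrier of neutral amino acids, was at 96.0 and 105 FPKM in scrambled against 98.3 and 116 FPKM in siMEF2A, with overlap. Slc38a6, a carrier of the same family and the most abundant of the class, was at 137 and 126 against 129 and 122 FPKM. Slc3a2, the heavy subunit that brings several exchangers to the plasma membrane, was at 36.3 and 40.5 against 36.3 and 40.9 FPKM, a log2 difference of 0.01 (95% interval -0.31 to 0.32). Slc1a5, the exchanger of glutamine and other neutral amino acids, was at 6.38 and 5.31 against 5.10 and 5.82 FPKM. Slc7a11, the cystine and glutamate exchanger, was at 2.90 and 2.78 against 2.72 and 2.57 FPKM, lower without overlap by a log2 difference of -0.07. Slc7a5, which pairs with Slc3a2, was not analysed here.

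Slc1a4 and Slc6a6 had the lowest estimates of the family, each with one low library. Slc1a4, an exchanger of alanine, serine and cysteine, was at 3.87 and 4.71 FPKM in scrambled against 2.25 and 4.48 FPKM in siMEF2A. The groups overlapped, and the log2 difference of -0.32 (95% interval -0.68 to 0.03) turned to 0.05 without siMEF2A replicate 1 and to -0.70 (limma adjusted p = 0.0254) without siMEF2A replicate 2. Slc6a6, the taurine carrier, was at 29.3 and 36.5 FPKM in scrambled against 23.0 and 31.4 FPKM in siMEF2A, with a log2 difference of -0.27 (95% interval -0.61 to 0.06). Among the carriers with higher values, Slc36a4, a proton-coupled amino acid carrier, was at 5.15 and 5.82 against 6.79 and 6.78 FPKM, and Slc1a3, a glutamate carrier, was at 3.34 and 3.35 against 4.43 and 3.79 FPKM. Neither passed the test.

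Genes of the amino acid response driven by ATF4, a list of 19 of which 17 were tested, gave 0 calls in limma. At an unadjusted p under 0.05 there were 5, all lower in siMEF2A. Over all genes tested 6.38% had such a p, with 388 of 11822 lower in siMEF2A. Going the other way, Ddit3, Ddit4 and Cebpb of the list were higher without overlap, at 109%, 112% and 116% of scrambled, and did not pass. Fgf21, a secreted stress factor, was at 26.7 and 30.6 FPKM in scrambled against 20.4 and 18.2 FPKM in siMEF2A. Chac1, which degrades glutathione, was at 7.74 and 8.50 against 4.85 and 6.70 FPKM. Asns, asparagine synthetase, was at 22.1 and 24.2 against 17.9 and 19.1 FPKM. Over the list the median log2 fold change was -0.05.

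Ion carriers, the second largest class, gave 0 calls among 43, and every 95% interval lay inside 1.5-fold on the log2(FPKM + 1) scale. That scale understates changes of the members at a few FPKM. The zinc importers led the class. Slc39a13, an importer of the secretory pathway, was at 105 and 96.0 FPKM in scrambled against 91.4 and 101 FPKM in siMEF2A. Slc39a7, which releases zinc from the endoplasmic reticulum, was at 70.4 and 77.9 against 71.0 and 85.2 FPKM. Slc39a1, an importer of the plasma membrane, was at 55.8 and 64.7 against 66.3 and 66.9 FPKM. Of these only Slc39a1 had groups that did not overlap, at a log2 difference of 0.15 (95% interval -0.18 to 0.47). Slc39a14, an importer of zinc, iron and manganese, was at 11.8 and 14.2 against 13.1 and 13.1 FPKM. Slc39a3 was at 7.54 and 7.05 against 6.65 and 6.36 FPKM.

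The zinc exporters Slc30a4 and Slc30a1 were at different levels. Slc30a4, an exporter of endosomal vesicles, was at 33.7 and 38.6 FPKM in scrambled against 44.2 and 42.7 FPKM in siMEF2A. Its log2 difference of 0.26 (95% interval -0.05 to 0.58) was the highest of the ion carriers. Slc30a1, the exporter of the plasma membrane, was at 1.29 and 1.53 against 1.51 and 1.62 FPKM, with overlap. Exon bases of Slc39a7 were shared to 80.7% with the gene model Gm20427 on the same strand, so its fragments cannot be told apart from that model's.

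Carriers of other ions were spread around 0. Slc9a9, a sodium-proton exchanger of endosomes, was at 11.9 and 14.2 FPKM in scrambled against 14.9 and 16.6 FPKM in siMEF2A, higher without overlap by a log2 difference of 0.26. Slc12a2, the sodium-potassium-chloride cotransporter, was at 4.57 and 6.07 against 4.81 and 6.08 FPKM. Slc20a1, a phosphate importer, was at 29.3 and 26.3 against 23.0 and 27.4 FPKM. Slc4a3, an anion exchanger of excitable tissue, was at 18.0 and 16.0 against 15.9 and 14.2 FPKM, and 5.69% of its FPKM fell on protein-coding transcripts. None of the 4 passed the test.

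Calcium carriers were partly under the minimum. Slc8a1, the sodium-calcium exchanger of heart and other tissues, was at 0.540 and 0.785 FPKM in scrambled against 1.14 and 1.12 FPKM in siMEF2A, below the mean of 1 FPKM and so not in the main test. With no minimum its log2 difference was 0.36 and its limma adjusted p = 0.30. Slc24a6, the sodium-calcium exchanger of mitochondria (Slc8b1 in the annotation), was at 23.0 and 19.6 against 19.3 and 21.8 FPKM. Slc8a3 was not analysed here. Of a list of 15 genes of the sodium pump and calcium pumps, 9 were tested. Atp2a1, the calcium pump of fast muscle fibres, fell from 43.7 and 54.6 to 23.4 and 28.2 FPKM (log2 difference -0.90). It was the 1 gene called lower, beside 1.34% of all genes tested, and 0 were called higher. Fxyd5 had an unadjusted p under 0.05 in limma and was higher without overlap, at 7.52 and 8.34 against 10.7 and 9.77 FPKM.

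The mitochondrial Slc25 carriers gave 0 calls among 36, and every 95% interval lay inside 1.5-fold on the log2(FPKM + 1) scale. For members near 1 FPKM, such as Slc25a23, this does not exclude a 1.5-fold change in FPKM itself. The 3 most abundant carriers of all belong here. Slc25a3, the mitochondrial phosphate carrier, was at 397 and 403 FPKM in scrambled against 375 and 379 FPKM in siMEF2A. Slc25a4, the ADP-ATP carrier typical of heart and skeletal muscle, was at 254 and 270.3 against 289 and 254 FPKM. Slc25a5, the ADP-ATP carrier of proliferating cells, was at 232 and 240.2 against 235 and 214 FPKM. The groups overlapped in Slc25a4 and Slc25a5. In Slc25a3 both siMEF2A libraries were lower, by a log2 difference of -0.08 (95% interval -0.48 to 0.32).

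Slc25a4 and Slc25a5 encode close relatives, and their promoters are printed for comparison with each other. The sequences are the 250 bases before the start in RefSeq on GRCm38.p6, 5′ to 3′ on the gene's strand, with the GC box GGGCGG (either strand) in capitals. Slc25a4 lies on the minus strand at chr8:46211063-46211312 and Slc25a5 on the plus strand at chrX:36795347-36795596. The Slc25a5 window holds the box on the other strand at 9 to 14 bases before the start, and the Slc25a4 window holds 0. Most of the Slc25a4 window lies inside the gene as placed by the GENCODE annotation, where it begins at 46211284. Bases before that other start were thus largely not searched.
Slc25a4: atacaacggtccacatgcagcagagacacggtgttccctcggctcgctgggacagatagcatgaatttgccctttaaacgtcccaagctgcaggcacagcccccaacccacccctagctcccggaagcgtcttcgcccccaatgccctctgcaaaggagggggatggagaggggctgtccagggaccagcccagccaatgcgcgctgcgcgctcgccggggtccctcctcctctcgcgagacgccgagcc
Slc25a5: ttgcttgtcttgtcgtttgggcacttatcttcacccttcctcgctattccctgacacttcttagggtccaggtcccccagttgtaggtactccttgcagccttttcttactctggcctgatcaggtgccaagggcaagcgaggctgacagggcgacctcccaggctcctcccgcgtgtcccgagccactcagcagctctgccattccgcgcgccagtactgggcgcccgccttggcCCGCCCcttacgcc

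Further Slc25 carriers did not pass the test either. Slc25a37, the iron carrier mitoferrin 1, was at 79.1 and 63.8 FPKM in scrambled against 68.4 and 70.8 FPKM in siMEF2A. Slc25a12, an aspartate and glutamate carrier, was at 19.98 and 25.2 against 26.7 and 24.98 FPKM. Slc25a20, the carnitine and acylcarnitine carrier, was at 12.9 and 14.1 against 15.9 and 13.6 FPKM. The groups of these 3 overlapped. Slc25a23, a calcium-regulated ATP-Mg carrier, was at 1.18 and 1.36 against 0.949 and 1.05 FPKM, a log2 difference of -0.18. In this class 11 of 36 carriers had both siMEF2A libraries above both scrambled ones (30.6%, beside 18.8% of all genes tested). In 3 (8.33%) both were below, beside 9.12% of all genes tested. Both counts were made on the values as deposited and not under another scaling.

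**Figure D3:**
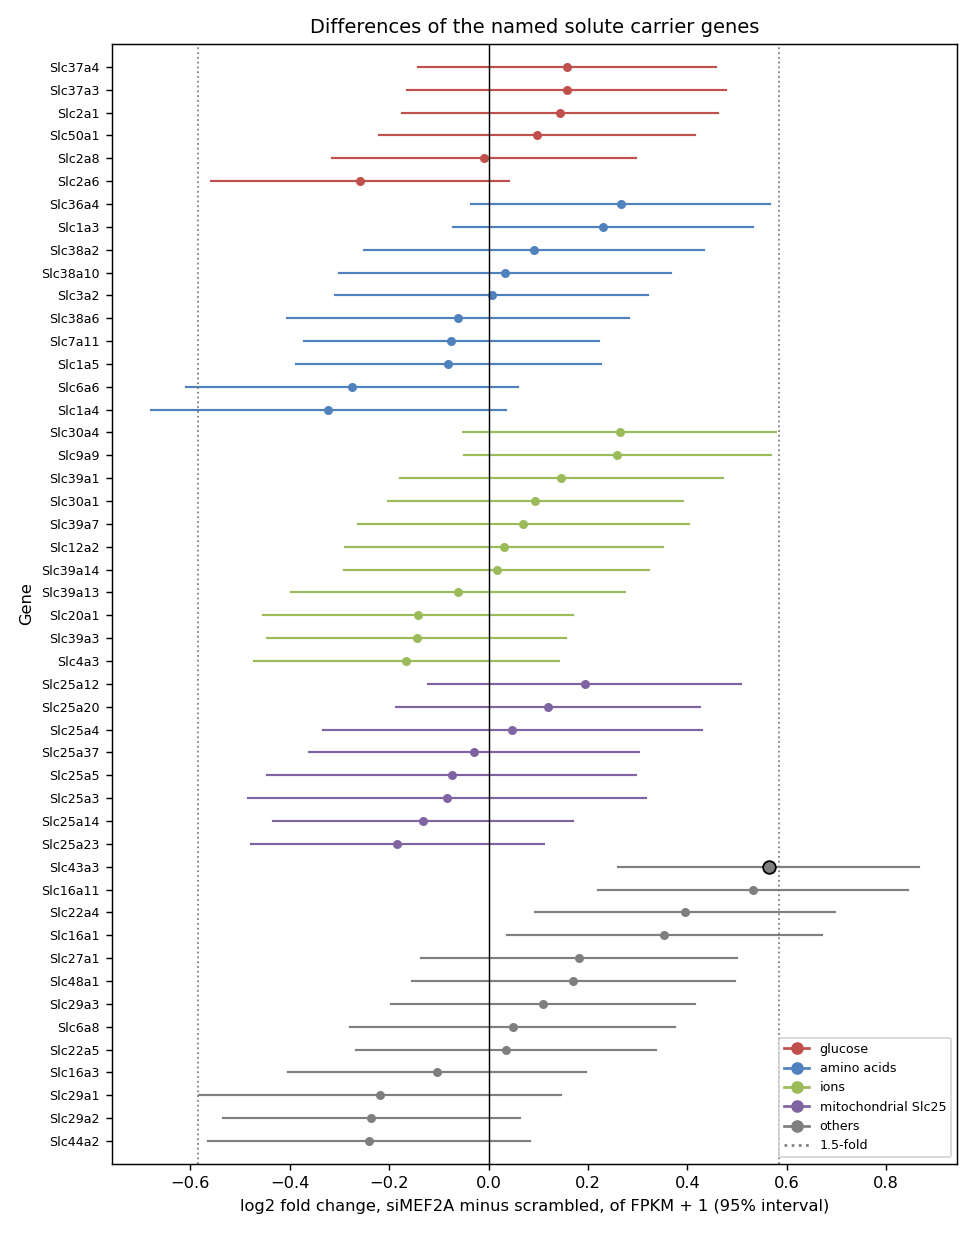
Log2 fold change (siMEF2A minus scrambled, of FPKM + 1) with its 95% interval for 48 named carriers that were tested, coloured by class, with dotted lines at 1.5-fold. Slc43a3, with a black outline, is the one called gene. The intervals of the glucose, ion and Slc25 genes all lie between the dotted lines.

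Differences between libraries of 1 group were of the size of those between groups. The median log2 difference over the carriers was 0.11 between scrambled replicate 2 and replicate 1 and 0.14 between siMEF2A replicate 2 and replicate 1. Between groups it was 0.07 for the libraries numbered 1, 0.07 for those numbered 2, -0.06 for siMEF2A replicate 1 less scrambled replicate 2, and 0.15 for siMEF2A replicate 2 less scrambled replicate 1. For ion carriers the 2 replicate differences were 0.16 and 0.17, and the between-group ones ran from -0.10 to 0.23. For Slc25 carriers all 6 medians were above 0, from 0.04 to 0.10. On the values as deposited, the sign of a class median therefore depended on which libraries were paired in every class but Slc25. It did so for all genes tested too. These pairs were not computed under another scaling. With median-ratio scaling the median log2 fold change of Slc25 between groups went from 0.08 to 0.031.

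**Figure D4:**
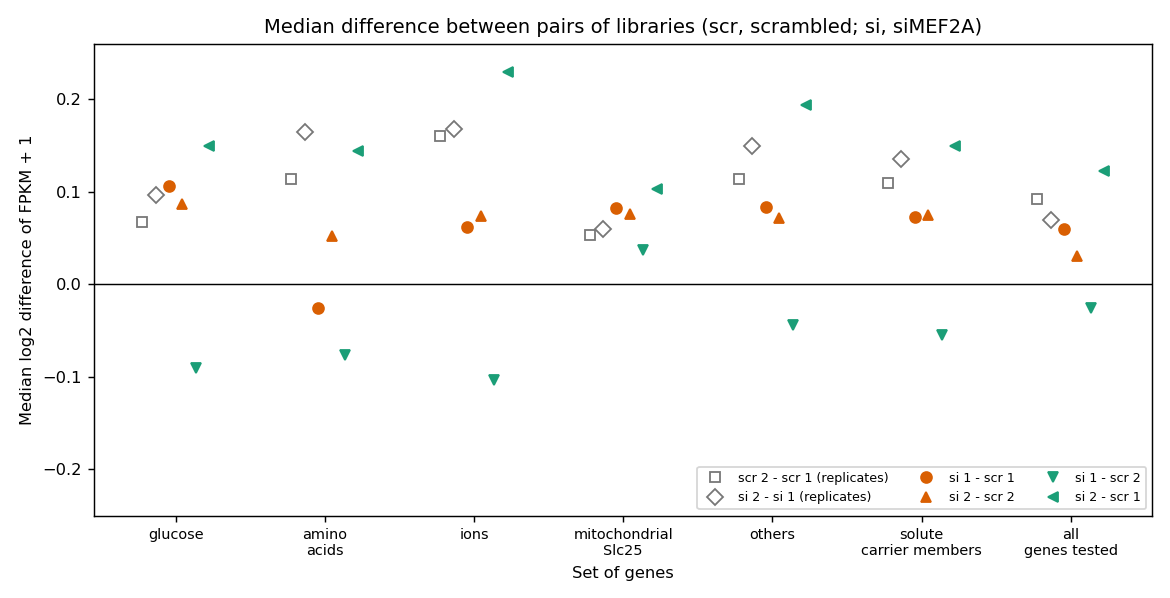
Median log2 difference of FPKM + 1 between pairs of libraries, for each class, all tested carriers and all genes tested. Open grey symbols compare replicates of a group and filled symbols a siMEF2A with a scrambled library. Over the carriers the replicate medians are 0.11 and 0.14, and the between-group medians run from -0.06 to 0.15.

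Transcript length moved with the differences between replicates. Across 159 carriers with a length, the replicate difference had a Spearman's rho with the length of the most abundant transcript of 0.33 in scrambled and 0.41 in siMEF2A. For the difference between groups rho was 0.14. These describe carriers within the same libraries, which are not independent, and no cause was tested. The median length of that transcript was 1999.5 bases for Slc25, 2138 for glucose, 2837 for others, 3718 for ions and 3989.5 bases for amino acid carriers.

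Single transcripts were also compared, as a choice made after seeing the data. Of the carriers' transcripts 311, from 153 genes, had a mean of at least 1 FPKM. At an adjusted p under 0.05 in limma 0 passed, beside 0.233% of 23624 transcripts in all, and 9 had an unadjusted p under 0.05, beside 5.63%. Singled out after their values were seen were a transcript of Slc43a3 and one of Slc25a3. The Slc43a3 transcript ENSMUST00000090726, which held 72.1% of its gene in scrambled and 72.9% in siMEF2A, was at 1.79 and 2.11 against 3.57 and 2.95 FPKM (limma adjusted p = 0.670). The Slc25a3 transcript ENSMUST00000170810 was at 63.7 and 69.0 against 50.5 and 50.1 FPKM (limma adjusted p = 0.791). The groups of both did not overlap, and neither passed the test. Values for transcripts of 1 gene come from the same fragments and are not independent.

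Promoters were searched because Mef2a encodes a factor that binds DNA. Windows of 250 bases before the start were matched to 123 of the 160 carriers in RefSeq on GRCm38.p6, as 164 windows. Slc43a3, the called carrier, had no matched window, so its promoter was not searched. RefSeq starts can differ from those of GENCODE, and a window can then lie inside the gene as GENCODE places it. The MEF2 motif, by its usual consensus and on both strands, was in 1 window (0.610%), beside 2.92% of 32851 windows in all and 1.51% of those of the genes tested. The GC box GGGCGG, on both strands, was in 110 windows (67.1%), beside 58.7% for the genes tested. TATAAA, on both strands, was in 8 windows (4.88%), beside 6.24%. A match is a description of letters and not of a site in use.

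The window with the MEF2 motif belongs to Slc38a7, a lysosomal carrier of glutamine and asparagine. It was at 25.2 and 26.1 FPKM in scrambled against 24.0 and 27.8 FPKM in siMEF2A, with overlap and a log2 difference of 0.01. The window lies on the minus strand at chr8:95853492-95853741, and the capitals mark the motif at 187 to 196 bases before the start. The part of the window nearest the start overlaps the gene as placed by GENCODE, and the motif does not.
Slc38a7: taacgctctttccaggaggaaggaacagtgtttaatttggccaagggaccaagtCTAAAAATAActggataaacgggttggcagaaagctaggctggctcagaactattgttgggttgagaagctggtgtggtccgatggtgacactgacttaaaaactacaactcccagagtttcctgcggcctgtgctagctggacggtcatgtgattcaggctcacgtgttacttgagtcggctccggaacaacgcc
For contrast, Slc16a11, whose siMEF2A libraries were higher, has a window on the plus strand at chr11:70213660-70213909. It holds neither the MEF2 motif nor the GC box and is printed in lower case throughout. The whole window lies inside the gene as placed above, because the RefSeq start differs. Bases before the start of that placement were not searched.
Slc16a11: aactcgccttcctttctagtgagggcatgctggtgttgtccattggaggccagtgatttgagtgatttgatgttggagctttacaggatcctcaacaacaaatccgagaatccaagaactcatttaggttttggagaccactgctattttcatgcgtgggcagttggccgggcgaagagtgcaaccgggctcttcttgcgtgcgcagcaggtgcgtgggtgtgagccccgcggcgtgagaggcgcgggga

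Exon bases were shared with another annotated gene in 47 of the 160 carriers, in 16 of them with a protein-coding gene on the opposite strand, and over 10% of exon bases in 11. The sources used here name no use of strand, so such fragments cannot be told apart. Slc43a3 and Slc16a11 shared none. In 13 tested carriers protein-coding transcripts held under 50% of the FPKM, Slc16a11, Slc22a4, Slc25a12 and Slc4a3 among them.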

How the data were processed

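RNA of 4 C2C12 libraries, 2 with scrambled siRNA and 2 with siRNA against Mef2a, was analysed from FPKM that the authors deposited per Ensembl transcript, with gene symbols, per the file headers. Per the submitters' processing notes the tools were CASAVA, Trimmomatic, TopHat, Bowtie and Cufflinks on mm10. The sources used here give no versions, settings, annotation, strand use or scaling. Of 36231 transcripts 35238 (97.3%) were found in GENCODE M21, on the same build.

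FPKM were summed per symbol, 28 small RNA symbols and 1977 symbols under a mean of 1 FPKM were left out, and log2(FPKM + 1) of 11822 genes was fitted by group in limma (version 3.58.1, R 4.3.3; linear model and moderated two-sided test with an intensity trend, 2 residual and 31.1 prior degrees of freedom). P-values were adjusted over all genes by Benjamini and Hochberg's method, and a call needed 0.05. Adjusted p-values throughout are from limma. Intervals are 95% intervals of the fit. Relative depth came from the commonest ratio among 600 low genes (within 0.3%), shared by only 11 to 17 of them, and assumes FPKM with no further scaling. Across genes, replicates correlated at Pearson's r 0.989 (scrambled) and 0.986 (siMEF2A).

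The carriers, their classes and all lists were chosen with earlier results of these data known. Named were a set of 28 carriers (23 tested, 1 under the minimum, 4 without a listed value), the called carrier and its relatives, per class the 3 most abundant and the 2 with the smallest p in each direction, and those at the minimum. Others are said to be chosen after values were seen, also Slc35a5, Slc6a2, Slc44a1, Slc16a13, Slc38a7 and Slc24a6. A few genes of this rule are left unreported. On simulated data for this comparison with 11822 genes, recovery was 56.7% for 67 genes changed 1.5-fold and 98.5% for 67 changed 2-fold. It was 100% for 66 changed 4-fold, with 4 false among 174 calls. The changed genes were drawn only from those above about 5 FPKM, and the change was added on the log2(FPKM + 1) scale. These rates therefore do not cover the 48 carriers from 1 to 5 FPKM, Slc43a3 among them. Alternatives changed the pseudocount, minimum, scaling, variance model, gene unit and libraries.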

Additional observations from a re-analysis of the deposited data

How the results depend on the processing

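Among 18 alternatives, 868 of 883 calls of named carriers under an alternative were as in the main analysis and 15 were not, and 22 named carriers that were not called changed sign under at least 1 (their largest log2 difference was 0.32). The carriers called higher were all among the other carriers, 1 in the main analysis and 2 with robust moderation. There were 0 with a pseudocount of 0.1, no minimum, a minimum of 5 FPKM, or median-ratio, upper-quartile or quantile scaling. The count was also 0 with no intensity trend, the most abundant transcript alone, or small RNAs kept. A minimum of 5 FPKM left Slc43a3 untested, so its call could not be kept there. Leaving out 1 library gave 0 to 1 carriers higher and 0 to 1 lower (Slc1a4, an amino acid carrier). All genes called higher, 48 in the main analysis, were 29 with no minimum, 14 with median-ratio and 14 with upper-quartile scaling (beside 135 and 132 lower), 11 with quantile normalization (107 lower), 25 without a trend, 73 with robust moderation, 23 with small RNAs kept, and 76 with protein-coding transcripts only, and from 41 to 73 without 1 library (73 without scrambled replicate 2). Genes called lower, 158 in the main analysis, were 98 at a minimum of 5 FPKM. Slc25's median log2 fold change of 0.08 became 0.031 with median-ratio scaling. Without 1 library the glucose median ran from -0.00044 to 0.116, that of ions from -0.00827 to 0.141 and that of amino acids from -0.0613 to 0.093. List counts in the main analysis, and their changes: pump genes lower 1, and 2 with no minimum; partner genes lower 0, and 1 with no minimum; partner genes higher 0, and 1 at a minimum of 5 FPKM, with robust moderation, protein-coding transcripts, or without scrambled replicate 2; ATF4 genes lower 0, and 1 at a minimum of 5 FPKM, with robust moderation or protein-coding transcripts, or without scrambled replicate 1; glucose use genes lower 2, and 1 at a minimum of 5 FPKM or without siMEF2A replicate 1; other-cell markers lower 0, and 1 with robust moderation or protein-coding transcripts, or without scrambled or siMEF2A replicate 2.

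With the number in the titles as a replicate block, 3 carriers were called higher (Slc43a3, Slc16a11 and Slc35a5), 2 of them among those named by rule, beside 224 genes higher and 290 lower. In the same block 1 proliferation marker and 1 partner gene were higher, and 4 ATF4 genes and 1 marker of other cells were lower. Deviations of same-numbered libraries correlated at 0.288 over 11822 genes, from 2 pairs only, and the labels do not say what a number marks. The deposited files number the scrambled libraries 2 and 3 where the titles have 1 and 2, so the numbers may pair no libraries. Protein-coding transcripts only and single transcripts were added after seeing the data. Absolute depth is unknown, so no counting error could be computed, and with 1 library left out the lone library is assumed to vary like the others.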
